A study of Mus musculus with 10 samples.

Results

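The genes described here are 33 genes of glycolysis and of the response to low oxygen, taken by symbol from the 36191 gene IDs of a mouse count table. All 33 were found and all 33 passed the filter on low counts, which kept 15819 genes. RNA was sequenced from Rybp null mutant and wild type mouse embryonic stem (ES) cells of the strain background 129x1 x 129S1 and from cardiac cultures derived from them, to compare the genotypes along differentiation toward heart cells. The groups were Rybp-null ES cells at day 0 (1 library), wild type ES cells at day 0 (1 library), null cultures at day 8 (2 libraries), wild type cultures at day 8 (2 libraries), null cultures at day 14 (2 libraries) and wild type cultures at day 14 (2 libraries). Cultures were started as hanging-drop embryoid bodies, which are clumps of ES cells that differentiate in suspension. The number of null and wild type clones behind these libraries, and whether a pair of replicates came from separate cultures, is not given in the sources used here, so p-values measure only the spread between these libraries, which may be technical.

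Glycolysis splits glucose into pyruvate, which is either turned into lactate and exported or oxidized in mitochondria. When oxygen is low, prolyl hydroxylases no longer mark HIF1A, the oxygen-sensitive subunit of hypoxia-inducible factor (HIF), for destruction. HIF then binds hypoxia response elements and raises transcription of glucose transporters, glycolytic enzymes, the angiogenic factor VEGFA and enzymes that modify collagen. ES cells are known to rely strongly on glycolysis, while adult cardiomyocytes oxidize mainly fatty acids, lactate and glucose in their mitochondria.

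Library totals ran from 3028153 to 6890792 counts, and the null day 0 library was the deepest. Levels are given in CPM, the count of a gene relative to its scaled library size. Rybp held 1 to 4 counts in each null library, against 64 to 231 counts in each wild type library. The cultures differed in cell markers. The summed level of 13 cardiomyocyte markers was 80.0 to 138 CPM in null against 2215 to 2688 CPM in wild type cultures at day 8, and 204 to 275 CPM in null against 972 to 1098 CPM in wild type cultures at day 14; 3 of these markers were at 0 in the null day 8 libraries. Macrophage markers were also lower in null cultures, at 12.1 to 21.0 CPM against 60.0 to 114 CPM at day 8 and 139 to 170.3 CPM against 370.4 to 488 CPM at day 14. In these bulk libraries fewer cells of a type and less RNA per cell cannot be told apart, and the part that cell makeup plays in the differences below was not tested.

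HIF recognizes a short core sequence, and the promoters of genes that moved in opposite directions are shown with it. The core was searched as ACGTG and GCGTG on both strands, so that CACGT and CACGC mark it on the other strand, in the 250 bases before each transcription start in RefSeq (GRCm38.p6). The capitals below mark each match. P4ha1, Slc16a3 and Egln1 rose between day 0 and day 8 in both genotypes, and Gapdh fell in both.
P4ha1 (chr10:59323046-59323295, plus strand): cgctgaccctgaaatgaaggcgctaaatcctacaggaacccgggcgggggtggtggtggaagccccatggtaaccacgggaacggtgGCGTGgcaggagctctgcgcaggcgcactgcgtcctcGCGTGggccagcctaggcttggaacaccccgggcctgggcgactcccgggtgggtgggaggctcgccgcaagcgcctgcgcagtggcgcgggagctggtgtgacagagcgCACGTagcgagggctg
Slc16a3 (chr11:120948817-120949066, plus strand): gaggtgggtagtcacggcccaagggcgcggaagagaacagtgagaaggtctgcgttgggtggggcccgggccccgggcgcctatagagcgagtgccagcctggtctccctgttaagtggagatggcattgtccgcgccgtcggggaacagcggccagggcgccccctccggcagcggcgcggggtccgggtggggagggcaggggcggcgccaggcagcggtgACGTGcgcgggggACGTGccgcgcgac
Egln1 (chr8:124949255-124949504, minus strand): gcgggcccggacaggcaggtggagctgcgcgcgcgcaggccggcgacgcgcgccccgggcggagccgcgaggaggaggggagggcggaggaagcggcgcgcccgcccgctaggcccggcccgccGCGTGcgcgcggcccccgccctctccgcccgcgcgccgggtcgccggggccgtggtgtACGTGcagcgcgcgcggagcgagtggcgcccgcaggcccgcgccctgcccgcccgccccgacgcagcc
Gapdh (chr6:125165774-125166023, minus strand): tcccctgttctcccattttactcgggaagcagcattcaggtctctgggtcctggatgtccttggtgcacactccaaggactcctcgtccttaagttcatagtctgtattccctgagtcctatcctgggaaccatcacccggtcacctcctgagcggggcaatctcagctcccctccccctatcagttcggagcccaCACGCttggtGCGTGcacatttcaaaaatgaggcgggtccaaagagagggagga
The P4ha1 window held 3 matches and the other windows 2 each, that of Gapdh among them. The Gapdh value is uncertain because of its copies, as given below. Any link of matches to direction was not tested. RefSeq windows were at hand for 31 of the 33 genes (45 windows), and 36 of the 45 windows (80%) held at least 1 match, against 38.6% of 32851 windows of all genes. GC content moved with this: its median was 61.6% in the 45 windows, against 52.4% in all windows, and the motif itself contains CG. Bnip3 and Ldha had the most matches, with 5 each in 1 window, followed by Ankrd37 with 4; 2.58% of all windows held 4 or more. In 3 genes (Gpi1, Eno2 and Tpi1) no window held the letters, although Eno2 and Tpi1 also rose in both genotypes. A match describes the letters only.

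Between day 0 and day 8 many of the 33 genes rose as ES cells became cultures. In null cells 13 rose (19% of all genes tested rose) and 2 fell (18.6% of all genes fell), with a median log2 fold change of 0.47 against 0.04 over all genes. In wild type cells 17 rose (21.2% of all genes) and 3 fell (19.3%), with a median of 1.52 against 0.13 over all genes. With Car9 left out, which held 2 counts at day 8 and 0 at day 0, the median was 1.38. The test of the difference between these changes, an interaction, passed for 0 of the 33. The genes that rose in both genotypes were 11: the glucose transporter Slc2a1, Pfkm, Pfkfb3, Tpi1, Pgk1, Eno2, the lactate exporter Slc16a3, the oxygen sensor Egln1, Vegfa, P4ha1 and Ndrg1. Gapdh fell in both, and no gene passed in opposite directions. Each change here was called at an adjusted p under 0.05 with edgeR's quasi-likelihood test, and each rests on 1 day 0 library per genotype, whose spread is assumed to be that of the other groups. Scaling by library totals alone moved the median of all genes to 0.28 in null and 0.33 in wild type cells, and the median of the 33 to 0.72 in null and 1.73 in wild type cells. Without null day 8 replicate 1, the null calls of Slc2a1, Eno2, Pkm and Adm were lost. DESeq2 did not call Pfkm, Eno2 and Adm in null cells (adjusted p = 0.0933, 0.0723 and 0.084).

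**Figure D1:**
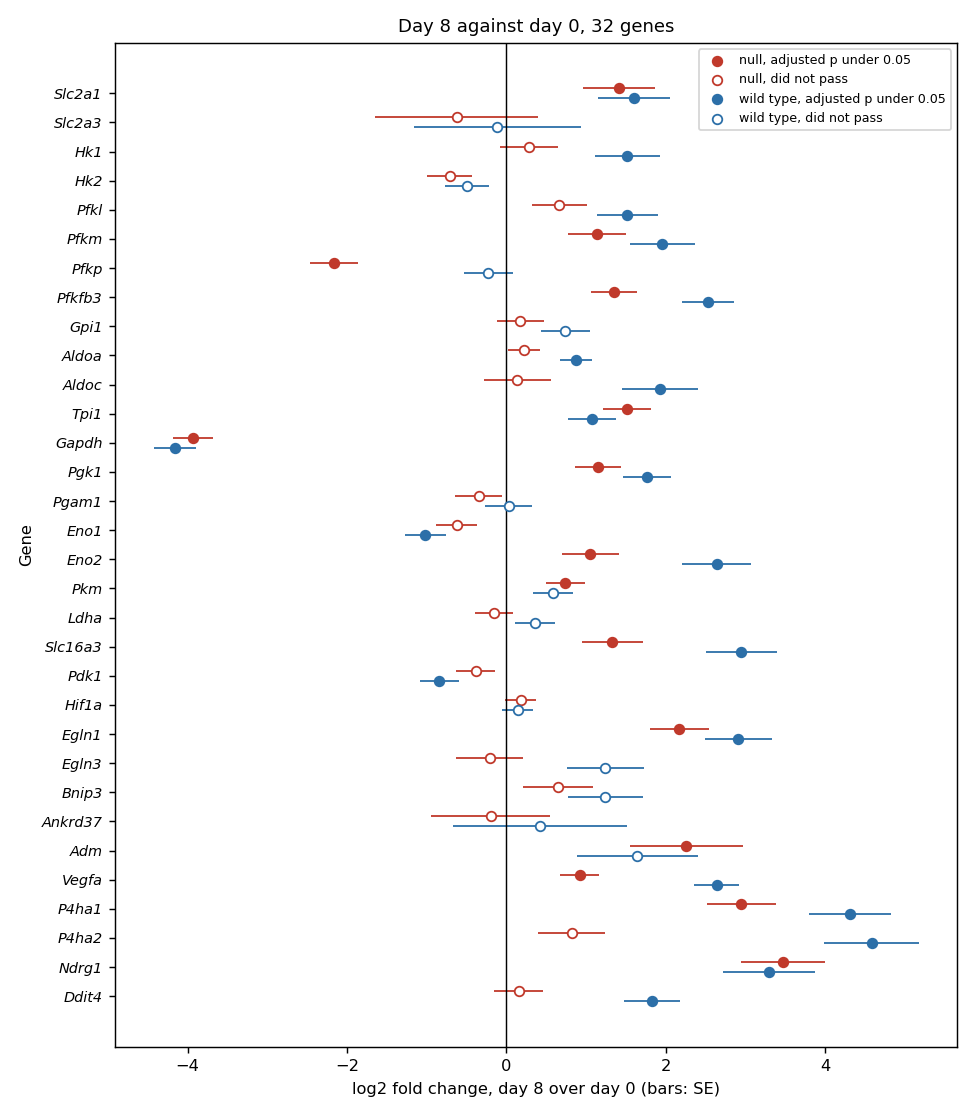
Log2 fold change of day 8 cultures over day 0 ES cells for 32 genes in null (red) and wild type (blue) cells, with SE bars; filled points passed at an adjusted p under 0.05. Car9 is left out because its counts at day 0 were 10 in null and 0 in wild type cells. Gapdh lies near −4 in both genotypes, and P4ha1, P4ha2, Ndrg1, Egln1 and Slc16a3 have the largest rises in wild type.

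Between genotypes no gene of the 33 passed at day 8 or day 14. Of all genes 1.26% passed at day 8 and 0.613% at day 14, and the lowest adjusted p among the 33 belonged to the muscle-type aldolase Aldoa at both days. Values below 0, meaning lower in null cultures, were found for 25 of 33 genes at day 8 (47.8% of all genes) and for 29 of 33 at day 14 (51.2% of all genes). The median log2 fold change was −0.33 at day 8 and −0.41 at day 14, against 0.01 and −0.01 over all genes. At an unadjusted p under 0.05, 8 of the 33 were found at day 8 (13.4% of all genes) and 11 at day 14 (12.9% of all genes). DESeq2 called 2 of the 33 at each day, and at day 14 it called 200 genes in all, against 97 with edgeR. Both null libraries lay below both wild type libraries for 19 of 33 genes at day 8 (20.9% of all genes) and for 22 at day 14 (22.8%); they lay above them for 2 genes at day 8 (21.1% of all genes) and for 1 at day 14 (20.9%). There were 13 genes with this separation, lower in null, at both days (7.75% of all genes): Hk2, Pfkl, Pfkp, Aldoa, Pgk1, Pgam1, Eno2, Ldha, Slc16a3, Egln3, Bnip3, Vegfa and Ddit4. Chromosomes moved with genotype too: genes of chromosomes 1, 6, 8 and 14 had median differences of 0.42, 0.22, 0.15 and 0.36 at day 8, against −0.04 for other autosomes. The 7 genes of the set on chromosomes 6 and 8 (Hk2, Tpi1, Gapdh, Eno2, Slc2a3, Egln1 and Ankrd37) had a median of 0.11 at day 8, against −0.36 for the other 26; at day 14 the medians were −0.37 and −0.48.

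**Figure D2:**
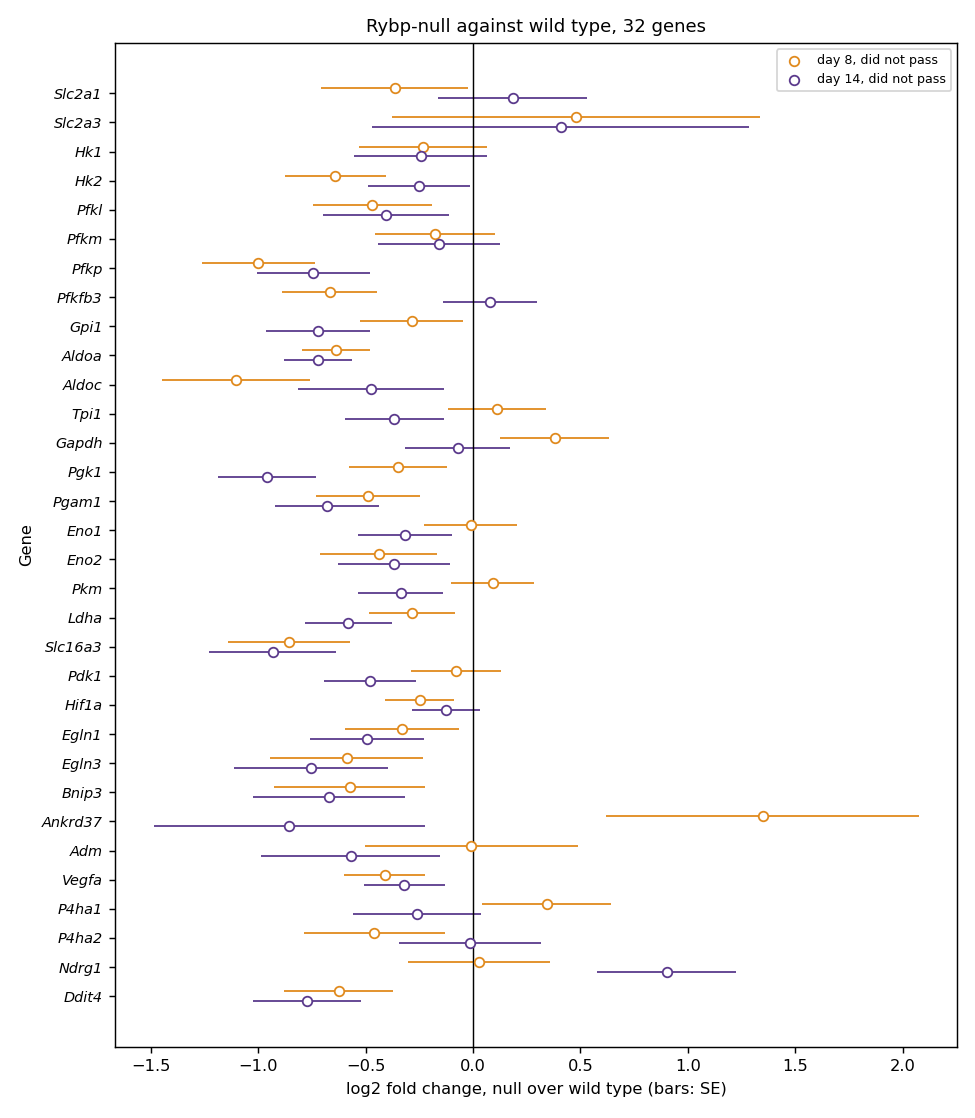
Log2 fold change of null over wild type cultures for 32 genes at day 8 (orange) and day 14 (purple), with SE bars; open points did not pass, which is all of them. Car9, with 0 counts in null cultures at day 14, is left out. Most points lie left of 0 at both days, and those of Slc2a3 and Ankrd37 have the widest error.

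Glucose entry depends on the transporters SLC2A1 (GLUT1) and SLC2A3 (GLUT3) and on hexokinases, which trap glucose in the cell as glucose 6-phosphate. Slc2a1 was higher at day 8 than at day 0 in both genotypes: null cells held 419 and 495 CPM at day 8 against 172 CPM at day 0, and wild type cells 541 and 636 CPM against 194 CPM. Its log2 fold changes were 1.41 (adjusted p = 0.0324, SE 0.45) in null and 1.6 (adjusted p = 0.0191, SE 0.46) in wild type cells. At day 14 the wild type cultures were back near the day 0 level, with 209 and 168 CPM, a fall by 1.64 on the log2 scale from day 8 (adjusted p = 0.0324, SE 0.35). Null cultures at day 14 were split, with 308 and 121 CPM, so their range enclosed that of wild type. The genotype differences were −0.37 (adjusted p = 0.716, SE 0.34) at day 8 and 0.19 (adjusted p = 0.91, SE 0.35) at day 14. Each of these 3 day calls of Slc2a1 was lost when some single library was left out, either null day 8 library among them, with an adjusted p between 0.0592 and 0.211 in the fits that lost it.

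Slc2a3, a high-affinity transporter abundant in ES cells, had the largest SE of the set between genotypes after Car9. It held 871 CPM in null and 438 in wild type ES cells. At day 8 it held 195 and 935 CPM in null against 335 and 474 CPM in wild type cultures, and at day 14 295 and 80.3 CPM against 159 and 123 CPM. At both days one null library lay above and the other below both wild type libraries, and the differences of 0.48 (adjusted p = 0.869, SE 0.86) and 0.41 (adjusted p = 0.929, SE 0.88) turned negative without the higher null library, to −1.05 at day 8 and −0.81 at day 14. The red cell markers summed to 3016 CPM in the null day 8 library that was low in Slc2a3 and to 987 CPM in the one that was high, against 901 and 944 CPM in wild type; their part in the spread was not tested.

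Hk2, the inducible hexokinase, passed in no comparison with all libraries in the fit and the filter on low counts in place. With no filter it was called in null cells from day 0 to day 8. It held 97.6 CPM in null and 131 in wild type ES cells, 46.4 and 72.8 CPM against 82.1 and 103 CPM at day 8, and 58.3 and 51.9 CPM against 68.1 and 63 CPM at day 14. The null libraries were below the wild type libraries at every day. The differences were −0.64 (adjusted p = 0.24, SE 0.24) at day 8 and −0.25 (adjusted p = 0.746, SE 0.24) at day 14. Without null day 8 replicate 2, Hk2 was called lower in null at day 8 (adjusted p = 0.0485) and was called in null cells from day 0 to day 8. Hk1, the hexokinase found in most tissues, passed in wild type: its changes from day 0 to day 8 were 0.28 (adjusted p = 0.579, SE 0.36) in null and 1.52 (adjusted p = 0.0106, SE 0.41) in wild type cells. The test of that contrast between genotypes gave −1.24 (adjusted p = 0.537, SE 0.53). Levels per kilobase use the union of all annotated exons of a gene, which sets the size of each ratio. Per kilobase of exon, Hk2 stood above Hk1 in all 6 groups, with ratios of 3.7 in null and 9.96 in wild type cells at day 0. The ratios were 1.87 in null and 2.46 in wild type cultures at day 8, then 3.12 in null and 3.13 in wild type cultures at day 14.

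**Figure D3:**
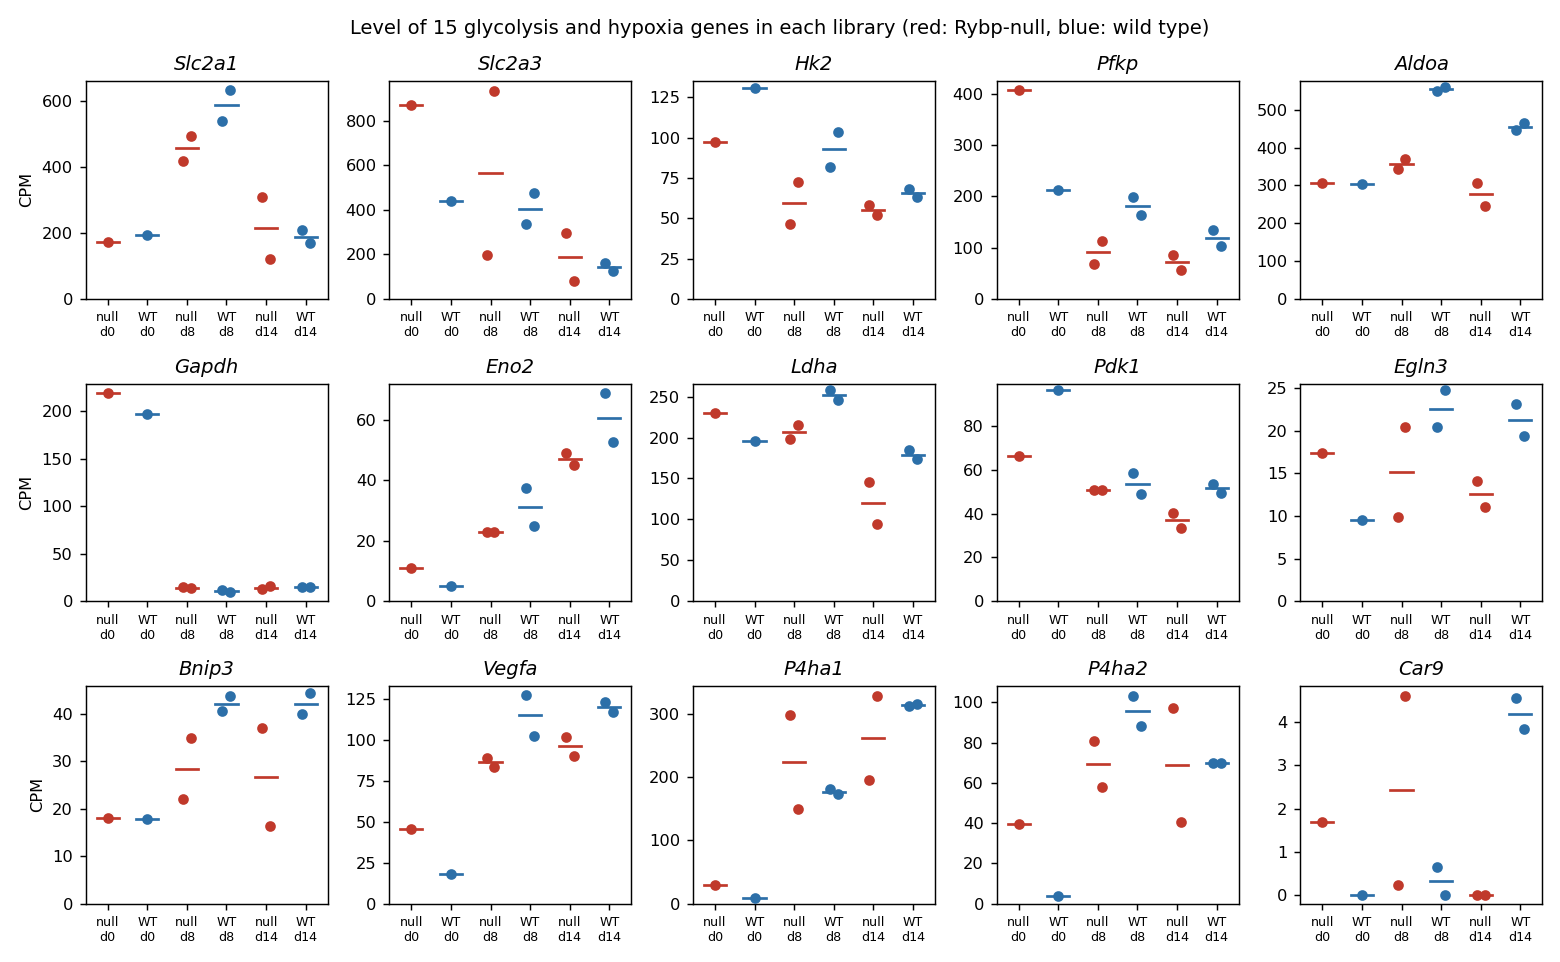
CPM of 15 genes in each of the 10 libraries (points) with group means (bars), null in red and wild type in blue, at days 0, 8 and 14; each panel has its own linear axis. Gapdh drops after day 0 in both genotypes, Vegfa and P4ha1 climb after day 0, and the null pairs of Slc2a3, P4ha1 and Bnip3 lie far apart.

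Phosphofructokinase commits sugar to glycolysis, and its 3 genes Pfkl, Pfkm and Pfkp encode the liver, muscle and platelet subunits. All of them and Pfkfb3, which makes the activator fructose 2,6-bisphosphate, were below 0 at day 8, with both null libraries under both wild type libraries in each of these 4 genes. The platelet form Pfkp was the most abundant per kilobase at day 0, 11.7 times Pfkl in null and 7.99 times in wild type ES cells, and 9.83 and 8 times Pfkm. It was 407 CPM in null and 212 in wild type ES cells, a ratio of 1.92 (1.76 to 2.1) with its 95% counting interval. At day 8 it was 68.7 and 113 CPM in null against 198 and 164 CPM in wild type cultures, and at day 14 85.3 and 56.4 CPM against 134 and 103 CPM. Pfkp stood above wild type in null ES cells and below it in null cultures.

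Pfkp fell from day 0 to day 8 in null cells, with a log2 fold change of −2.17 (adjusted p = 0.000151, SE 0.30), against −0.23 (adjusted p = 0.588, SE 0.31) in wild type. The test of that difference gave −1.94 (adjusted p = 0.138, SE 0.45) and did not pass; DESeq2 and the fit without null day 8 replicate 2 called it. Null against wild type it was −0.999 (adjusted p = 0.0929, SE 0.26) at day 8 and −0.74 (adjusted p = 0.238, SE 0.26) at day 14, and DESeq2 called the day 8 difference with an adjusted p of 0.0219. From day 0 the per-kilobase ratio of Pfkp to Pfkm fell to 0.996 in null and 1.75 in wild type cultures at day 8. At day 14 it was 0.985 in null and 1.47 in wild type cultures. Its size rests on exon unions of 13401 bases for Pfkp and 3340 bases for Pfkm. In CPM, Pfkp had a mean of 90.7 and Pfkm of 22.7 in null cultures at day 8. Pfkm rose from day 0 to day 8 in both genotypes, by 1.14 (adjusted p = 0.0257, SE 0.36) in null and 1.96 (adjusted p = 0.00237, SE 0.41) in wild type cells.

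Pfkfb3 had a null level at day 8 of 56.6 and 46.9 CPM against 71.9 and 92.4 CPM in wild type, and at day 14 of 73.8 and 70.2 CPM against 75.1 and 61.3 CPM. The groups were separate at day 8 and overlapped at day 14. Its rise from day 0 to day 8 was 1.35 (adjusted p = 0.00327, SE 0.29) in null and 2.53 (adjusted p = 7.67e-05, SE 0.33) in wild type cells. The genotype difference was −0.67 at day 8 (adjusted p = 0.192) and 0.08 at day 14 (adjusted p = 0.949), and the change of that difference between the days did not pass (adjusted p = 0.783).

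The enzymes from glucose 6-phosphate to pyruvate are encoded here by 10 genes. At day 14 all 10 were below 0 in null cultures, and 7 of the 10 had both null libraries under both wild type libraries; at day 8 7 of 10 were below 0. Of these, Gapdh turned above 0 at day 14 without null day 14 replicate 1 (0.06), and Aldoc without wild type day 14 replicate 2 (0.00259). At day 8 Gpi1 turned above 0 without null day 8 replicate 1 (0.0517). Eno1, at −0.01 at day 8, turned above 0 when scaled without genes of chromosomes 1, 6, 8, 14 and Y (0.04). It also did so without replicate 2 of either genotype at day 8. Aldoa, which splits fructose 1,6-bisphosphate, came nearest to the threshold. It held 306 CPM in null and 303 in wild type ES cells, which is nearly equal. At day 8 it held 345 and 369 CPM in null against 549.7 and 560.2 CPM in wild type cultures, and at day 14 306 and 246 CPM against 447 and 464 CPM. No null library reached the lower wild type library at either day. The log2 fold changes were −0.64 (adjusted p = 0.0776, SE 0.16) at day 8 and −0.72 (adjusted p = 0.0651, SE 0.16) at day 14. DESeq2 called Aldoa at both days (adjusted p = 0.0223 and 0.0121), and edgeR called it at day 14 once either null day 8 library was left out. From day 0 to day 8 the change of Aldoa was 0.22 (adjusted p = 0.402, SE 0.20) in null cells, and in wild type it rose by 0.87 (adjusted p = 0.00455, SE 0.20). Its paralog Aldoc showed a null to wild type difference of −1.10 (adjusted p = 0.165, SE 0.35) at day 8 and −0.47 (adjusted p = 0.641, SE 0.34) at day 14.

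Phosphoglycerate kinase, encoded by the X-linked gene Pgk1, makes the first ATP of the pathway. Pgk1 held 173 CPM in null and 144 in wild type ES cells. At day 8 it held 387 and 379 CPM in null against 481 and 494 CPM in wild type cultures, and at day 14 235 and 129 CPM against 367 and 339 CPM. It rose from day 0 to day 8 in both genotypes, by 1.15 (adjusted p = 0.0084, SE 0.29) in null and 1.76 (adjusted p = 0.000655, SE 0.30) in wild type cells. Null cultures then fell by 1.08 on the log2 scale from day 8 to day 14 (adjusted p = 0.0135, SE 0.23), while the wild type change was −0.47 (adjusted p = 0.332, SE 0.23); the difference between these changes did not pass (adjusted p = 0.868). The genotype difference at day 14 was −0.96 (adjusted p = 0.0876, SE 0.23), and without null day 14 replicate 1 it passed at −1.46 (adjusted p = 0.013); DESeq2 and the fit with no filter on low counts also called it (adjusted p = 0.0133 and 8.01e-05). The fall in null cultures was lost without null day 14 replicate 2, with an adjusted p of 0.0715. Pgk1 is uncertain because 2 copies in the table, matching at 90% identity or more over at least 200 bases, held 20.4 to 37.4% of the joint counts.

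Enolase makes phosphoenolpyruvate, and Eno2 encodes the form typical of neurons. Per kilobase of exon the ratio of Eno1 to Eno2 was 8.94 in null and 26.3 in wild type ES cells, 2.79 and 2.06 at day 8, and 0.977 and 0.939 at day 14. Copies of Eno1 by the same limits, 2 in number, held 37.8 to 50.8% of their joint counts with Eno1. With the copies added to Eno1 the ratio was 15.9 in null and 45.4 in wild type ES cells. It was then 5.36 in null and 3.97 in wild type cultures at day 8, with 1.68 and 1.8 for day 14. Eno2 held 11 CPM in null and 4.95 in wild type ES cells, 23 and 22.7 CPM against 37.4 and 24.8 CPM at day 8, and 49 and 45 CPM against 68.7 and 52.6 CPM at day 14. It rose from day 0 to day 8, by 1.05 (adjusted p = 0.0337, SE 0.35) in null and 2.64 (adjusted p = 0.000441, SE 0.43) in wild type cells, and again to day 14 in null cultures, by 1.04 (adjusted p = 0.0356, SE 0.27), with 0.97 (adjusted p = 0.0676, SE 0.27) in wild type. The null call at day 14 was lost with DESeq2 (adjusted p = 0.0512) and without any 1 of 6 libraries (adjusted p = 0.0549 to 0.121). Null libraries were below wild type at both later days, yet the genotype differences of −0.44 (adjusted p = 0.535, SE 0.27) and −0.37 (adjusted p = 0.633, SE 0.26) did not pass. The neural marker sum was 104.9 CPM in null and 169 in wild type ES cells, 38.6 to 48.6 CPM in null against 30.7 to 31.3 CPM in wild type cultures at day 8, and 37.1 to 48.4 CPM against 40.3 to 49.3 CPM at day 14. From day 0 to day 8 Eno1 had a log2 fold change of −0.63 (adjusted p = 0.0707, SE 0.25) in null cells and fell in wild type, with −1.02 (adjusted p = 0.00703, SE 0.25).

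Between genotypes, the remaining enzymes Gpi1, Tpi1, Pgam1 and Pkm ranged from −0.49 to 0.11 at day 8. At day 14 they ranged from −0.72 to −0.34. The 1 copy of Gpi1 held 11.05 to 15.3% of the joint counts. Tpi1, triose phosphate isomerase, rose in both genotypes from day 0 to day 8, by 1.51 in null (adjusted p = 0.00194) and 1.07 in wild type cells (adjusted p = 0.0136). Pkm, pyruvate kinase, rose in null cells by 0.74 (adjusted p = 0.0311) and then fell by 0.89 on the log2 scale from day 8 to day 14 (adjusted p = 0.0165, SE 0.20). It held 178 and 141 CPM in null against 141 and 159 CPM in wild type cultures at day 8, and 87.8 and 85 CPM against 94.6 and 124 CPM at day 14. Both null day 14 libraries lay under all other day 8 and day 14 libraries. The rise of Pkm was lost without either wild type day 8 library or null day 8 replicate 1 (adjusted p = 0.0523 to 0.0881), and its fall without null day 8 replicate 1 or either null day 14 library (adjusted p = 0.052 to 0.092). Gpi1 and Pgam1 were called lower in null at day 14 without either null day 8 library (adjusted p = 0.0477 to 0.0499) and with no filter on low counts, and Pgam1 also at day 8 without null day 8 replicate 2 (adjusted p = 0.0287).

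Gapdh, the enzyme often used as a constant reference, had the largest fall of the set. It held 219 CPM in null and 197 in wild type ES cells, 15 and 13.5 CPM against 12.1 and 9.86 CPM at day 8, and 13 and 15.8 CPM against 15.5 and 14.8 CPM at day 14. The log2 fold changes from day 0 to day 8 were −3.93 (adjusted p = 4.92e-07, SE 0.26) in null and −4.16 (adjusted p = 4.11e-07, SE 0.27) in wild type cells. Both null libraries were above both wild type libraries at day 8, with a difference of 0.38 (adjusted p = 0.565, SE 0.25), and the genotypes overlapped at day 14. In raw counts Gapdh held 1292 in null and 598 in wild type ES cells, and 35 to 64 in every later library. This value is uncertain, since 60 copies of Gapdh are in the table, 57 of them with counts. The limit for a copy was 90% identity over at least 200 bases. How the authors' counting treated shared reads is not given in the sources used here. The copies together moved the same way: they held 5070 counts in null and 2189 in wild type ES cells, against 47 to 121 in the later libraries. With the copies added to Gapdh, the change was −4.78 in null and −4.77 in wild type cells. The share of the joint counts on the copies was 79.7% in null and 78.5% in wild type ES cells, and 43.4 to 69.8% in the later libraries. Any difference in reads or mapping between the ES cell and culture libraries was not tested. No other gene of the set fell by more than 2.17 on the log2 scale between day 0 and day 8.

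**Figure D4:**
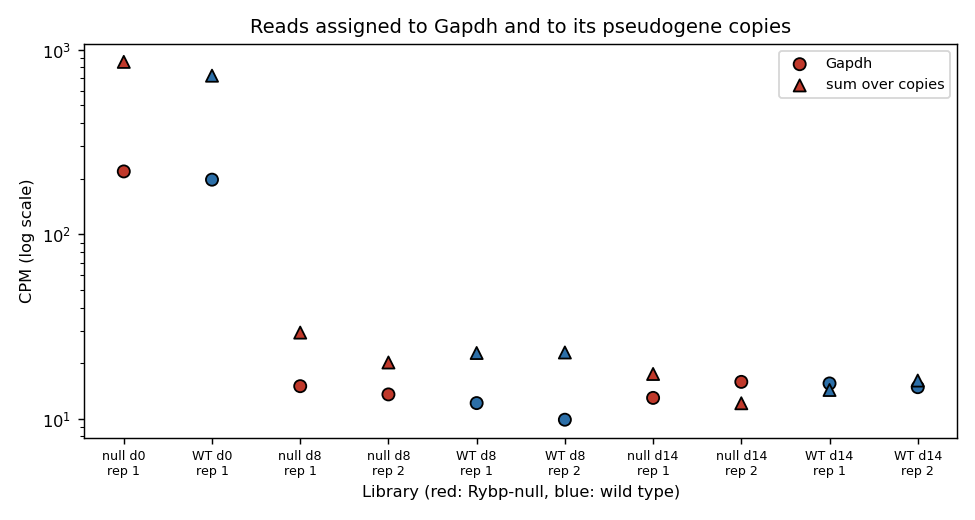
CPM (log axis) of Gapdh (circles) and of its 60 copies summed (triangles) in each library, null in red and wild type in blue. Both drop together after day 0, Gapdh to between 9.86 and 15.8 CPM, with null slightly above wild type at day 8.

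Pyruvate is turned to lactate by LDHA and exported by SLC16A3 (MCT4), while PDK1 blocks its entry into mitochondria by inhibiting pyruvate dehydrogenase. Ldha held 230.3 CPM in null and 196 in wild type ES cells, 198 and 216 CPM against 258 and 246 CPM at day 8, and 146 and 93.9 CPM against 185 and 173 CPM at day 14. Null libraries were below wild type at both later days and above it at day 0. The genotype differences were −0.28 (adjusted p = 0.59, SE 0.20) at day 8 and −0.58 (adjusted p = 0.228, SE 0.20) at day 14. From day 8 to day 14 null cultures fell by 0.79 on the log2 scale (adjusted p = 0.0331, SE 0.20), a call lost without any 1 of 6 libraries (adjusted p = 0.0625 to 0.224), and the wild type change was −0.49 (adjusted p = 0.226, SE 0.20).

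Slc16a3 rose in both genotypes from day 0 to day 8, by 1.33 (adjusted p = 0.0155, SE 0.38) in null and 2.95 (adjusted p = 0.000238, SE 0.44) in wild type cells. It held 19.1 and 26.2 CPM in null against 44.7 and 37.2 CPM in wild type cultures at day 8, and 14.9 and 12.6 CPM against 22.8 and 29.6 CPM at day 14, with no overlap at either day. The differences were −0.86 (adjusted p = 0.192, SE 0.28) and −0.93 (adjusted p = 0.188, SE 0.30). Pdk1 held 66.5 CPM in null and 96.3 in wild type ES cells, 50.8 and 50.9 CPM against 58.5 and 49 CPM at day 8, and 40.3 and 33.6 CPM against 53.5 and 49.5 CPM at day 14. From day 0 to day 8 it had a log2 fold change of −0.39 (adjusted p = 0.242, SE 0.25) in null cells and fell in wild type, with −0.84 (adjusted p = 0.017, SE 0.25). Between genotypes it overlapped at day 8, with a difference of −0.08 (adjusted p = 0.915, SE 0.21), and was lower in both null libraries at day 14, with −0.48 (adjusted p = 0.365, SE 0.21). The wild type call missed the threshold with library totals alone (adjusted p = 0.0691) and without wild type day 8 replicate 2 (adjusted p = 0.106).

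Oxygen sensing rests on HIF1A and on the prolyl hydroxylases EGLN1 and EGLN3, whose genes HIF itself can raise. Hif1a ranged from 181 to 244 CPM over all 10 libraries and passed in no comparison, with −0.25 (adjusted p = 0.546, SE 0.16) between genotypes at day 8. HIF1A is regulated mainly as a protein, which was not measured. Egln1 held 7.45 CPM in null and 5.61 in wild type ES cells, 27.1 and 40.3 CPM against 37.7 and 46.8 CPM at day 8, and 30.4 and 30.4 CPM against 45.6 and 40.1 CPM at day 14. It was low in both ES libraries and several times higher in every culture. The rise was 2.17 (adjusted p = 0.000713, SE 0.37) in null and 2.91 (adjusted p = 0.000181, SE 0.42) in wild type cells. Egln3 held 17.4 CPM in null and 9.57 in wild type ES cells, 9.91 and 20.4 CPM against 20.4 and 24.8 CPM at day 8, and 14.1 and 11.1 CPM against 23.1 and 19.4 CPM at day 14. It was higher in the null library at day 0, with a ratio of 1.82 (1.2 to 2.85), and lower in the null libraries later, with −0.59 (adjusted p = 0.522, SE 0.36) and −0.75 (adjusted p = 0.405, SE 0.36); neither passed. Its change from day 0 to day 8 was −0.21 in null and 1.24 in wild type cells, with an interaction of −1.45 (adjusted p = 0.542, SE 0.63).

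The 9 other hypoxia targets held the largest rises. P4ha1 and P4ha2 encode the catalytic subunits of collagen prolyl 4-hydroxylase, which stabilizes collagen. P4ha1 held 29.1 CPM in null and 8.91 in wild type ES cells, 298 and 150.2 CPM against 181 and 173 CPM at day 8, and 196 and 328 CPM against 312 and 316 CPM at day 14. All cultures were far above the ES cells, and the null pairs were spread around the wild type pairs at day 8. Its rise was 2.95 (adjusted p = 0.000334, SE 0.43) in null and 4.31 (adjusted p = 7.26e-05, SE 0.52) in wild type cells.

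P4ha2 held 39.4 CPM in null and 3.96 in wild type ES cells, 80.8 and 58.1 CPM against 103 and 88.2 CPM at day 8, and 97.4 and 40.8 CPM against 69.7 and 69.7 CPM at day 14. The wild type ES library, with 12 counts, stood far below all others, and the null ES library lay near the lowest cultures. Its change from day 0 to day 8 was 0.82 (adjusted p = 0.144, SE 0.42) in null cells and 4.58 (adjusted p = 9.62e-05, SE 0.60) in wild type, the largest rise of the set. The interaction of −3.76 (adjusted p = 0.0774, SE 0.71) was the lowest p of the set in that test and did not pass, nor did any of the 33 (0.0316% of all genes passed; 11 of the 33 and 8.88% of all genes had an unadjusted p under 0.05). It passed without either null day 14 library (adjusted p = 0.0149 and 0.0146) and with DESeq2 (adjusted p = 0.000683), which called 3 genes, P4ha2, Vegfa and Pfkp.

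Vegfa, the main growth factor for blood vessels, held 45.9 CPM in null and 18.5 in wild type ES cells. At day 8 it held 89.5 and 83.7 CPM in null against 128 and 103 CPM in wild type cultures, and at day 14 102 and 90.5 CPM against 123 and 117 CPM. Null was higher than wild type in ES cells and lower in every culture. Its rise was 0.92 (adjusted p = 0.00994, SE 0.24) in null and 2.64 (adjusted p = 1.78e-05, SE 0.28) in wild type cells, and the interaction was −1.72 (adjusted p = 0.0927, SE 0.35). The culture differences of −0.41 (adjusted p = 0.372, SE 0.19) and −0.32 (adjusted p = 0.538, SE 0.19) did not pass. Of 7 tested endothelial markers, whose cells respond to VEGFA, 0 were called at day 8 (1.26% of all genes), with a median difference of 0.05. At day 14, 2 were called lower in null (0.613% of all genes were called), with a median of −0.98. All 8 listed markers summed to 264 to 327 CPM in null against 417 to 442 CPM in wild type cultures at day 8 and to 97.1 to 137 CPM against 144 to 192 CPM at day 14. The VEGFA receptor gene Kdr held 82 and 72.5 CPM in null against 152 and 137 CPM for wild type cultures at day 8. At day 14 Kdr held 47.3 and 22 CPM against 79.4 and 43.6 CPM. Cdh5, the cadherin of endothelial junctions, held 55.1 and 38.3 CPM in null against 31.6 and 33.5 CPM for wild type cultures at day 8. At day 14 Cdh5 was also higher in null, with 55.7 and 38.1 CPM against 19.5 and 6.64 CPM. The part of these markers in the Vegfa values was not tested.

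Bnip3, which promotes the removal of mitochondria, held 18.1 CPM in null and 17.8 in wild type ES cells, 22 and 34.8 CPM against 40.6 and 43.7 CPM at day 8, and 36.9 and 16.3 CPM against 39.8 and 44.4 CPM at day 14. The null pairs were below the wild type pairs at both later days but lay far apart. The differences were −0.57 (adjusted p = 0.528, SE 0.35) and −0.67 (adjusted p = 0.466, SE 0.35). Copies of Bnip3, 2 in number, held 11.8 to 26% of the joint counts, the most in null day 8 replicate 1. Ddit4, an inhibitor of mTORC1 signalling, had a day 0 to day 8 value of 0.15 (adjusted p = 0.732, SE 0.31) in null cells and rose in wild type by 1.83 (adjusted p = 0.00141, SE 0.35). Between genotypes it was −0.63 (adjusted p = 0.301, SE 0.25) at day 8 and −0.77 (adjusted p = 0.199, SE 0.25) at day 14.

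Ndrg1, a stress-induced gene, rose most in null cells: it held 21.8 and 31.7 CPM at day 8 against 2.37 CPM at day 0 in null cells, and 19.2 and 33 CPM against 2.64 CPM in wild type cells. Its rises were 3.47 (adjusted p = 0.000279, SE 0.53) in null and 3.29 (adjusted p = 0.000689, SE 0.57) in wild type cells. At day 14 it was the only gene of the 33 with both null libraries above both wild type libraries, at 55.5 and 40.3 CPM in null against 28.6 and 22.7 CPM in wild type cultures, with a difference of 0.90 (adjusted p = 0.245, SE 0.32). Adm, the peptide hormone adrenomedullin, was low in ES cells, with 5 counts in null and 4 in wild type. It held 4.84 and 3.45 CPM in null against 4.15 and 4.23 CPM in wild type cultures at day 8, and 7.04 and 13.1 CPM against 15.5 and 14.6 CPM at day 14. It rose from day 0 to day 8 in null cells, by 2.26 (adjusted p = 0.0254, SE 0.71), and from day 8 to day 14 in wild type, by 1.83 (adjusted p = 0.0429, SE 0.46). The null call was lost with DESeq2 (adjusted p = 0.084) and without null day 8 replicate 1 (adjusted p = 0.0835); the wild type call was lost with DESeq2 (adjusted p = 0.144) and without any 1 of the 4 wild type cultures (adjusted p = 0.181 to 0.27).

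Car9, a membrane carbonic anhydrase and a classic HIF target, was counted rarely. It held 10 counts in null and 0 in wild type ES cells, 1 and 16 counts in null against 2 and 0 in wild type cultures at day 8, and 0 and 0 in null against 15 and 15 in wild type cultures at day 14. At day 14 the null level was at least 10.5-fold lower, against a floor of 3 counts over both null libraries. At day 8 the pooled ratio of null to wild type was 7.46 with a 95% counting interval of 1.77 to 66.6, and 16 of the 17 null counts came from 1 library. The edgeR adjusted p was 0.438 at day 8 and 0.145 at day 14, and 0.641 for the change between the days. Ankrd37, also a HIF target, had 0.958 to 9.19 CPM in the cultures and differences of 1.35 (adjusted p = 0.462, SE 0.73) and −0.86 (adjusted p = 0.649, SE 0.63). Such bounds speak to counting error alone.

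From day 8 to day 14 few of the 33 changed. In null cultures 1 rose, Eno2 (4.29% of all genes rose), and 3 fell, Pgk1, Pkm and Ldha (3.41% fell). In wild type 1 rose, Adm (2.47% of all genes), and 1 fell, Slc2a1 (1.57%). The median log2 fold changes were −0.26 in null and −0.16 in wild type cultures, against −0.01 and 0 over all genes; with 1 library left out they ranged from −0.53 (without null day 14 replicate 1) to −0.06 (without null day 8 replicate 2) in null and from −0.24 (without wild type day 8 replicate 1) to −0.09 (without wild type day 8 replicate 2) in wild type. Without null day 14 replicate 2 none of the 4 null calls passed. Over all 33 genes, the summed level was 3200.3 and 2437 CPM in null against 3753 and 3713 CPM in wild type cultures at day 14, and 3515 and 4481 CPM against 4673 and 4945 CPM at day 8. No gene of the table had a genotype difference that changed between days 8 and 14 by edgeR's test (0% of 15819; 3 of the 33 and 6.08% of all genes had an unadjusted p under 0.05, and DESeq2 called 4 genes of the table, none of the 33). The day comparisons share their day 8 libraries with each other and with the genotype comparison, so they are not separate evidence.

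At day 0, each genotype had 1 library, so no test was made. Of the 30 genes that reached 5 CPM in one of the ES cell libraries, 6 were at least 2-fold higher by log2 CPM with a prior count of 2 in null (7.48% of 10865 genes) and 0 were at least 2-fold lower (4.33%). The 6 were P4ha2, with a ratio of 9.96 (5.59 to 19.6), Ankrd37 with 3.98 (1.41 to 15.5), P4ha1 with 3.27 (2.17 to 5.1), Vegfa with 2.48 (1.86 to 3.37), Eno2 with 2.22 (1.25 to 4.2) and Ddit4 with 2.07 (1.54 to 2.83); brackets give 95% counting intervals. P4ha2, Ankrd37 and Eno2 reached 5 CPM only in the null library, with 3.96, 1.32 and 4.95 CPM in wild type. Their place in this count therefore rests partly on the limit, which was also used for all genes. Hk1, with a ratio of 2.01 (1.49 to 2.73), missed the 2-fold limit once the prior count was added. Pdk1 was among the lower genes, with 0.69 (0.592 to 0.806), as was Hk2 with 0.746 (0.655 to 0.849). The median log2 ratio was 0.38, against 0.06 over all genes counted. The pluripotency markers summed to 11268 CPM in null and 6555 in wild type ES cells, most of it Nanog (8244 CPM against 4088 CPM); of the 10 markers 5 were higher and 5 lower in null, Pou5f1 (154 CPM against 172 CPM) and Sox2 (159 CPM against 182 CPM) among the lower. The cardiomyocyte markers summed to 157 CPM in null and 367 in wild type ES cells, most of it Ttn (132 CPM against 341 CPM), and without Ttn to 25.04 and 26.39 CPM.

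Related genes were looked at for the same pathways. Among 13 tested glycolytic genes outside the set, Eno3, the enolase of muscle, was lower in null cultures at day 8, with 6.53 and 6.91 CPM against 24.6 and 18.6 CPM and a difference of −1.68 (adjusted p = 0.0455, SE 0.36). Ldhb, the lactate dehydrogenase subunit of heart, was higher in null cultures at day 14, with 52.4 and 58.3 CPM against 26.2 and 18.1 CPM and a difference of 1.33 (adjusted p = 0.0448, SE 0.26). The other 11 passed at neither day. Of all genes 1.26% passed at day 8 and 0.613% at day 14. Eno3 missed the threshold with DESeq2 (adjusted p = 0.108) and without any 1 of 6 libraries, and Ldhb without any 1 of 6. Ldhb also missed it in edgeR's test without the day 0 libraries (adjusted p = 0.0503). Scaled without genes of chromosomes 1, 6, 8, 14 and Y, Eno3 also missed it in edgeR's test (adjusted p = 0.0502). Of 29 other tested hypoxia targets, 1 passed between genotypes at day 8 (1.26% of all genes) and 0 at day 14 (0.613%). It was Plod2, a collagen lysyl hydroxylase, lower in null at day 8 with 529.5 and 602 CPM against 978 and 942 CPM. The difference was −0.76 (adjusted p = 0.0428, SE 0.16) and missed the threshold without any 1 of 5 libraries. It also missed it when scaled without genes of chromosomes 1, 6, 8, 14 and Y (adjusted p = 0.0531). From day 0 to day 8, 8 of the 29 rose and 2 fell in each genotype (19% of all genes rose and 18.6% fell in null, 21.2% and 19.3% in wild type). Plod2 rose by 1.41 (adjusted p = 0.000256, SE 0.21) in null and 2.89 (adjusted p = 2.05e-06, SE 0.23) in wild type cells.

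Genes of pyruvate entry into mitochondria were tested in the same way. Of 14 tested, 0 passed between genotypes at day 8 or day 14 with edgeR, and from day 0 to day 8 5 fell and 1 rose in null and 4 fell and 2 rose in wild type cells (18.6% of all genes fell and 19% rose in null, 19.3% and 21.2% in wild type). Pdha1, the catalytic subunit of pyruvate dehydrogenase, held 45.5 and 54.4 CPM at day 8 against 136 CPM at day 0 in null, and 40.2 and 42.8 CPM against 152 CPM in wild type cells, with changes of −1.45 (adjusted p = 0.000619, SE 0.24) and −1.87 (adjusted p = 9.57e-05, SE 0.25). Dlat, its acetyltransferase, changed by −1.51 (adjusted p = 0.000357, SE 0.24) in null and −1.23 (adjusted p = 0.00168, SE 0.24) in wild type cells. Among 10 other oxygen-sensing genes, 4 rose in null and 3 rose and 1 fell in wild type cells (19% of all genes rose in null, and 21.2% rose and 19.3% fell in wild type), and the prolyl hydroxylase Egln2 rose in both, by 2.14 (adjusted p = 0.00138, SE 0.41) in null and 1.90 (adjusted p = 0.00367, SE 0.42) in wild type.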

How the data were processed

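RNA from 10 libraries was measured by sequencing. Per the labels' protocols, RNA was extracted with TRIzol and amplified with NuGEN kits; per the submitters' processing notes, TopHat, HTSeq and DESeq were used with the mouse build mm9, with no versions given. The authors deposited raw counts per gene, with 3028153 to 6890792 counts per library. Genes were kept with edgeR's filter at a minimum count of 10 and scaled by TMM. All 15819 were fitted with edgeR 4.0.16 (R 4.3.3, quasi-likelihood, robust) on 6 genotype and day groups with 4 residual degrees of freedom, and p-values were adjusted over all genes by Benjamini-Hochberg at 0.05. SE was taken from the fold change and the F value. Day 0 genotypes had 1 library each and were given with 95% exact counting intervals. Copies were annotated pseudogenes or named retrogenes that matched at 90% identity or more over at least 200 bases, found with BLAST 2.17.0. DESeq2 1.42.0, other scalings, no filter, left-out libraries and a replicate block were alternatives, and the script was tested on simulated data. Genes and lists were chosen with earlier results of these data known. Values in each library were set by rule for genes with the largest calls and for 10 key genes, and those of further genes were added after their values were seen.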

Additional observations from a re-analysis of the deposited data

How the results depend on the processing

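With 2 libraries a group at most and 4 residual degrees of freedom, absent calls between genotypes limit the size of a difference only loosely, and shallow libraries leave Car9, Adm and Ankrd37 with wide counting error. The direction of the set was steady: the 33 genes were below 0 in 23 to 27 cases at day 8 and in 28 or 29 at day 14 under every scaling, filter and left-out library tried on all 33, although up to 6 single genes changed sign at day 8 (without null day 8 replicate 2). The number of the 33 called between genotypes was 0 in the main edgeR fit and 2 with DESeq2 at each day. In edgeR with no filter on low counts it was 3 at day 8 and 6 at day 14. For the interaction of days 0 and 8 it was 3 with DESeq2 and 5 with no filter, and for days 8 and 14 it was 1 with no filter. From day 8 to day 14 it was 6 in wild type and 7 in null cultures with no filter, and 1 in wild type with DESeq2. Over all genes, no filter gave 708 calls at day 8, 637 at day 14, 65 and 273 for the interactions of days 8 and 14 and of days 0 and 8, 1244 in wild type and 1892 in null cultures from day 8 to day 14. DESeq2 gave 200 at day 14, and 4 and 86 for these interactions. With library totals alone the interaction of days 0 and 8 had 1 call. With genes of chromosomes 1, 6, 8, 14 and Y left out, an alternative chosen after seeing the data, the calls were 100 at day 8, 55 at day 14 and 1 for the interaction of days 0 and 8.

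Leaving out 1 library at a time gave, over all genes, 28 to 324 calls at day 8, 14 to 301 at day 14, 0 to 2 for the interaction of days 8 and 14, 0 to 46 for that of days 0 and 8, 4939 to 6141 in null and 4706 to 6990 in wild type cells from day 0 to day 8, and 613 to 1243 in null and 108 to 935 in wild type cultures from day 8 to day 14. For the 33 genes the ranges were 0 to 3, 0 to 4, 0 to 0, 0 to 1, 11 to 16, 18 to 23, 0 to 4 and 0 to 4 in the same order. The genotype differences of the 33 genes except Car9 were also refitted one by one. With 1 library left out, those that changed sign at day 8 ranged from −1.05 to 1.2 for Slc2a3, −0.827 to 0.173 for Hk1, −0.15 to 0.145 for Eno1, −0.284 to 0.205 for Adm and −0.306 to 0.473 for Ndrg1 (all turned without null replicate 2, Eno1 and Adm also without wild type replicate 2 and Ndrg1 without wild type replicate 1), from −0.732 to 0.0517 for Gpi1, −0.0953 to 0.249 for Pkm, −0.0463 to 2.21 for Ankrd37 and −0.244 to 0.753 for P4ha1 (all without null replicate 1), and from −0.202 to 0.0537 for Pdk1 (without wild type replicate 1). At day 14 they ranged from −0.636 to 0.71 for Slc2a1, −0.811 to 1.06 for Slc2a3, −0.224 to 0.0647 for Gapdh and −0.68 to 0.0667 for P4ha1 (all without null replicate 1), from −0.77 to 0.485 for P4ha2 (without null replicate 2), −0.326 to 0.0282 for Pfkm (without wild type replicate 1), and −0.0619 to 0.233 for Pfkfb3 and −0.997 to 0.00259 for Aldoc (both without wild type replicate 2). Differences near 0 also turned positive elsewhere: Adm at day 8 with no filter (0.00166) and with the replicate block (0.00281), Eno1 and Adm at day 8 when scaled without genes of chromosomes 1, 6, 8, 14 and Y (0.0367 and 0.0392) or with those genes left out (0.0526 and 0.0559), and P4ha2 at day 14 in the same 2 settings (0.0303 and 0.0382) and with library totals alone (0.0122). None of the differences that changed sign passed after the change. The cause was not tested.

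Replicate numbers did not pair the libraries: same-numbered null and wild type libraries correlated at 0.065 at day 8 and 0.16 at day 14, and null libraries of days 8 and 14 at −0.21. With the replicate block 0 of the 33 were called between genotypes at either day, Adm was lost in wild type from day 8 to day 14 (adjusted p = 0.0686), leaving 1 call, and Eno3, Plod2 and Ldhb no longer passed (adjusted p = 0.0847, 0.0884 and 0.0864). Over all genes the block gave 130 calls at day 8 and 0 for the interaction of days 0 and 8. Crossing the numbers of the null day 14 libraries, chosen after seeing the data, gave 1158 calls in null cultures from day 8 to day 14, 4 of them in the set.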

Other observations

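The pentose phosphate pathway, which makes NADPH and ribose, and glycogen metabolism branch off glycolysis. Of 14 genes tested, 0 differed between genotypes at day 8 or day 14 by edgeR's test, and from day 0 to day 8 5 rose and 1 fell in null (19% and 18.6% of all genes) and 4 rose and 1 fell in wild type cells (21.2% and 19.3%). Pygb, the brain form of glycogen phosphorylase, held 67.7 and 33.1 CPM at day 8 against 6.26 CPM at day 0 in null, and 64.2 and 64 CPM against 8.25 CPM in wild type cells, with changes of 3.01 (adjusted p = 0.000321, SE 0.46) and 2.95 (adjusted p = 0.000449, SE 0.48). Rpia, ribose 5-phosphate isomerase, rose in null cells by 2.89 (adjusted p = 0.000335, SE 0.45), from 3.38 CPM in the only null ES library. The wild type ES library held 10.6 CPM. Rpia was at 25.1 and 25.6 CPM in null against 11.2 and 12.4 CPM in wild type cultures at day 8. At day 14 the values were 12.4 and 11.1 CPM against 15.5 and 10.2 CPM. Rpia lies on chromosome 6, whose genes had a median genotype difference of 0.22 at day 8. Germ cell markers were higher in null cultures (114 to 193 CPM against 3.38 to 4.79 CPM at day 8), while of 7 genes of glycolysis or sugar transport that are typical of testis 2 passed the filter on low counts, Gapdhs and the fructose transporter gene Slc2a5, and 0 were called between genotypes.

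Null replicates of the same day differed more than wild type replicates over all genes, with a mean chi-square per gene of 14.05 in null and 3.14 in wild type cultures at day 8 and 8.79 and 4.27 at day 14. The sum of the glucose transport and hexokinase genes was 721 and 1533 CPM in null against 1014 and 1265 CPM in wild type cultures at day 8, and 686 and 279 CPM against 469 and 382 CPM at day 14. Visceral endoderm markers varied between the same null libraries, with 43.0 and 219 CPM at day 8 and 422 and 97.4 CPM at day 14; whether the 2 patterns are linked was not tested.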
